A study of Sus scrofa with 6 samples.

Results

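The genes described here are the Wnt ligands, their receptors and the regulators of the pathway in differentiating PSCs (porcine satellite cells, which are stem cells of skeletal muscle and form myotubes by fusion). They were chosen by name, from a list of 60 symbols that covers ligands, ligand secretion, Frizzled receptors, co-receptors, secreted inhibitors, R-spondins with their receptors and ubiquitin ligases, Dishevelled and planar polarity proteins, the destruction complex and the nuclear effectors. Of these, 49 were found in the table of 28266 genes by a symbol paired with their pig Ensembl identifier, and 41 had a mean level high enough to be tested. The study followed cultured PSCs from the skeletal muscle of male Yorkshire pigs aged 3 days, 3 libraries at 24 h of differentiation and 3 libraries at a later time, in either group replicates 4, 5 and 6. The title of the series and the study's text put the later group at 36 h, the time used here, while the sample labels give 48 h. The letter N of the library titles is the letter that the study uses for cells transfected with negative control (NC) siRNA, so both groups are taken to carry the NC siRNA, and the labels themselves do not name it. The labels do not say whether the replicates came from separate animals or cultures, so that the p-values below measure the spread between these libraries only, which may be technical. WNT4, WNT5A, FZD1, FZD8, SFRP4, DKK2, RSPO1, PRICKLE1, CTNNBIP1, TCF7L1 and PYGO2 had no matching symbol and were not analysed here.

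Wnt proteins are secreted, lipid-carrying signals. In the canonical branch, a Wnt bound to a Frizzled receptor and an LRP co-receptor recruits Dishevelled, the destruction complex of AXIN, APC, glycogen synthase kinase and casein kinase stops degrading β-catenin, and β-catenin enters the nucleus, where it works with TCF factors and BCL9 proteins. Other branches pass from Frizzled, ROR and RYK receptors through Dishevelled to the cytoskeleton and to calcium. In skeletal muscle, Wnt signaling is known for its part in satellite cell self-renewal, in the commitment of myoblasts to differentiation and in their fusion.

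Levels are FPKM values, the fragments of a gene scaled by its length in kilobases and by the depth of the library, as the authors deposited them. The whole fragments behind each value were recovered from the steps of the FPKM values, and the libraries held between 16338989 and 21841091 fragments. In 1 kb of gene, a fragment added 0.0457 to 0.0610 to the FPKM, and 3 fragments, taken as the limit that a count of 0 allows, added 0.137 to 0.183. Changes are differences of log2(FPKM + 1), 36 h minus 24 h, which understates the change of genes at low FPKM. They were fitted with limma for the 14060 genes whose mean FPKM reached 1, and a gene is called higher or lower where the adjusted p was under 0.05. Of all genes tested, 50.9% were called, 16.5% higher and 34.4% lower at 36 h, and the median change of all genes was -0.16. When libraries were put on one scale by the median ratio across genes, that median was -0.0033 and changes were shifted upward, so the change under this scaling is given where a call depends on it.

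The libraries fit the label of muscle cells. All 13 muscle genes with a symbol were tested, 11 of them were higher at 36 h, and their summed FPKM was 18894, 17247 and 11782 at 24 h against 36540, 36536 and 32665 at 36 h. MYOD1, the myogenic transcription factor, lay between 246.0 and 386.4 in all 6 libraries. The extraction note of the labels names endometrium instead. The 5 endothelial genes found summed to between 1.25 and 2.11, with KDR listed at 0 throughout and PECAM1 not called. The 5 leukocyte genes found summed to between 4.63 and 5.89 at 24 h and between 2.05 and 3.37 at 36 h, with PTPRC listed at 0 throughout and CD14 called lower. The 5 genes found of smooth muscle and pericytes summed to between 106.9 and 132.3 at 24 h and between 157.6 and 193.2 at 36 h. Of these, NOTCH3 and ABCC9 were called higher and CSPG4 lower, and MYH11 was at or near 0 in all libraries. The fibroblast genes summed to between 831.9 and 1039, with 3 of 7 tested genes higher and 3 lower. The cell cycle genes, 9 of 11 lower at 36 h, summed to 78.5, 108 and 215 at 24 h against 28.6, 25.3 and 33.0 at 36 h. Replicate 6 of the 24 h group therefore stood apart, with the lowest muscle sum and the highest cell cycle sum, and changes without it are given beside several results below. Fewer cells of a type and less RNA per cell cannot be told apart in such bulk libraries, and the part of either in the values below was not tested.

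Among the 41 tested genes of the pathway list, 9 were higher (22.0%) and 13 lower (31.7%) at 36 h, together 22 (53.7%), against the 50.9% of all genes. The 3 values of a group lay entirely on one side of the other group in 25 of the 41 genes (61.0%), against 63.6% of all genes tested. Both shares lay near the background, and the median change of the 41 genes was -0.01, or 0.17 with median-ratio scaling. The genes called higher were FZD4, FZD7, DKK3, ZNRF3, DVL1, DVL2, AXIN2, APC and BCL9L. Called lower were PORCN, WLS, FZD6, LRP6, RYK, ROR2, SFRP1, DKK1, DAAM1, DAAM2, VANGL1, CSNK1E and TCF7L2. By role, neither of the 2 tested ligands, 2 of 2 secretion genes, 3 of 6 Frizzled receptors, 3 of 5 co-receptors and alternative receptors, 3 of 5 secreted inhibitors, 1 of 2 genes of the R-spondin group, 5 of 7 Dishevelled and polarity genes, 3 of 7 destruction complex genes and 2 of 5 nuclear effectors were called. Without 24 h replicate 6, 10 genes were higher and 12 lower. With median-ratio scaling 11 were higher and 7 lower, so the balance of directions depended on the scaling, while no called gene changed sign under any alternative.

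**Figure D1:**
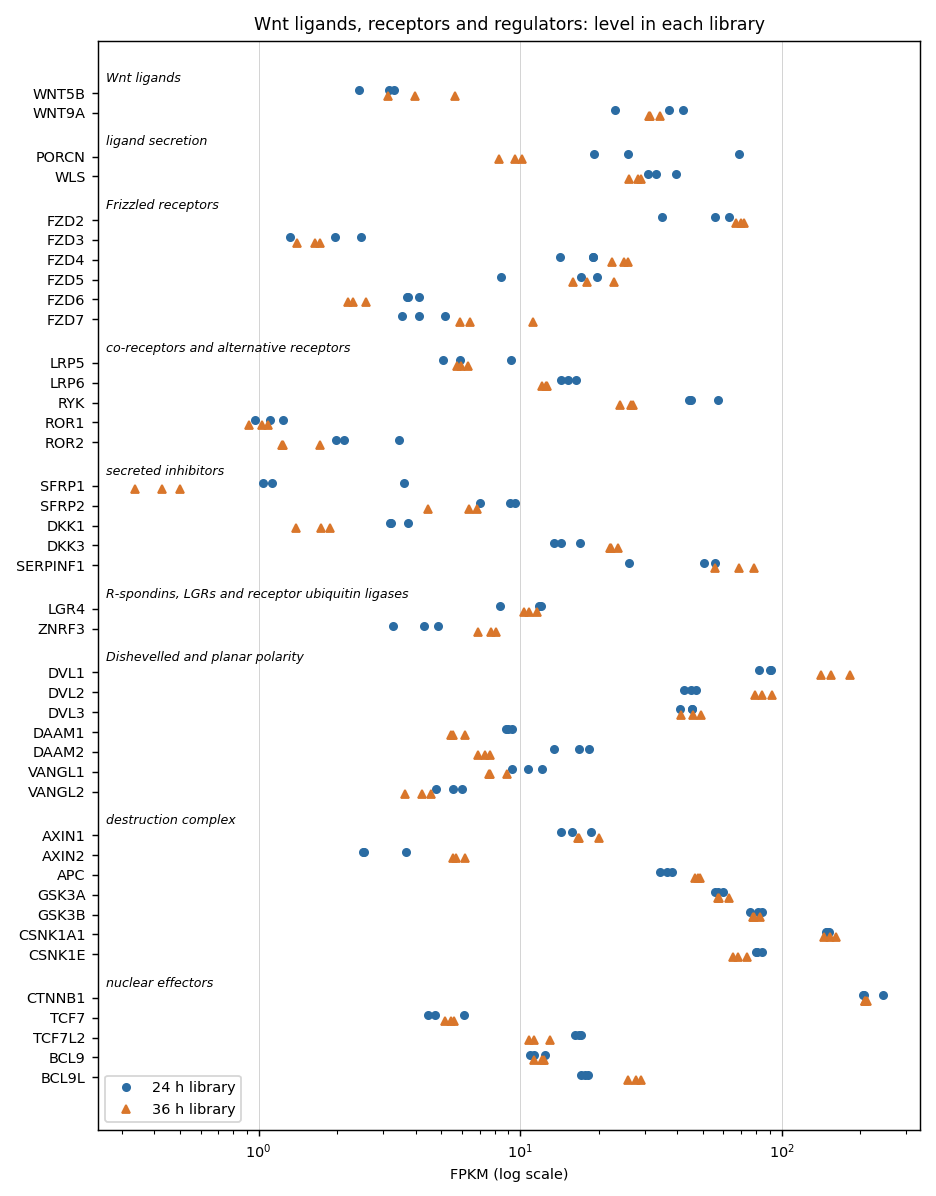
FPKM (log scale) of each of the 41 tested genes in each library, with 24 h libraries as circles and 36 h libraries as triangles, ordered by role. Levels span from SFRP1, at 0.338 to 3.59, to CTNNB1, at 204.7 to 244.5, and DVL1, DVL2 and RYK show groups that do not overlap beside DVL3, whose groups do.

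**Figure D2:**
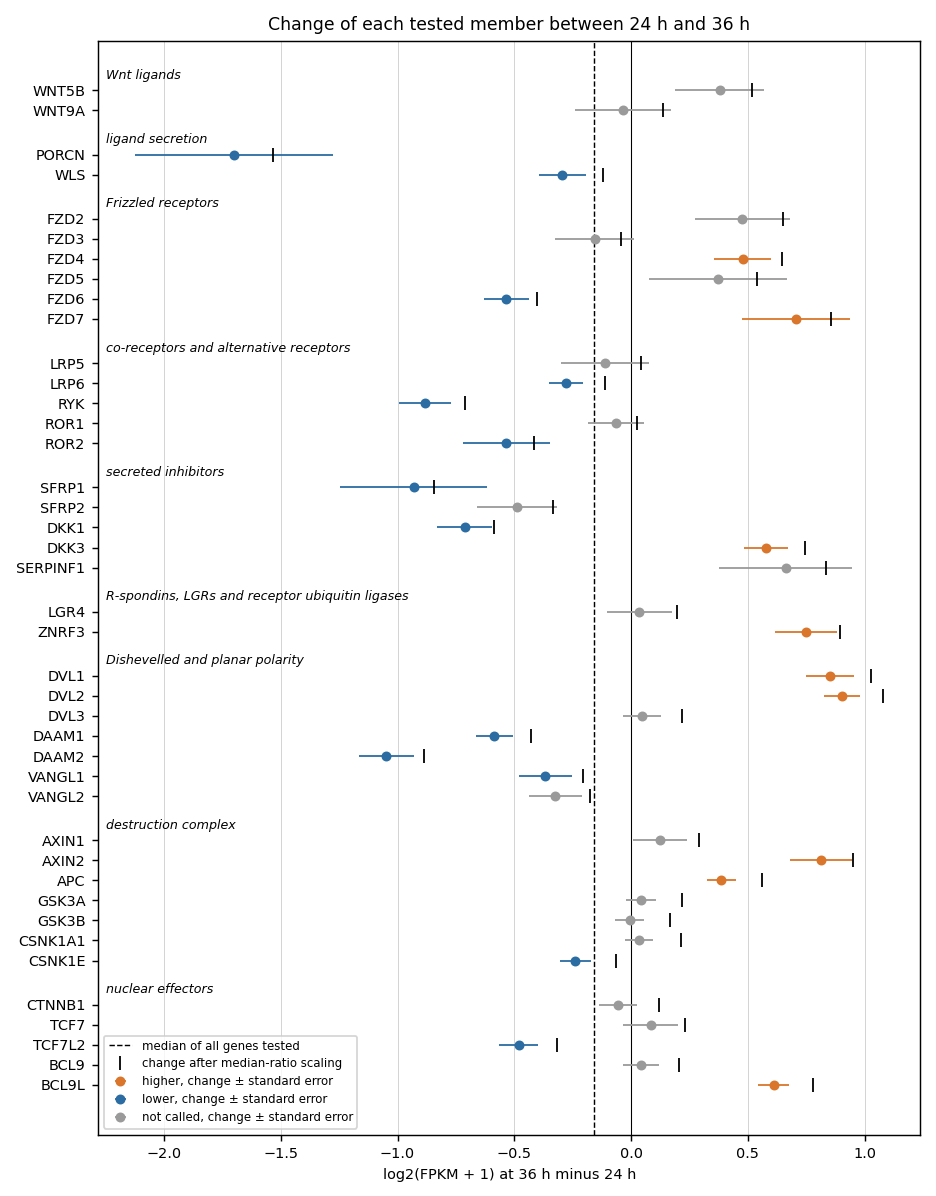
Change in log2(FPKM + 1), 36 h minus 24 h, of each tested gene with its limma standard error (3 libraries per group), colored by call. The dashed line is the median change of all genes tested, -0.16, and a vertical tick gives the change after median-ratio scaling. PORCN lies lowest at -1.70 and DVL2 highest at 0.90.

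Among the ligands of the list that were found, the summed level rested on WNT9A in both groups. Neither of the 2 that were tested was called. WNT9A (ENSSSCG00000024671), a ligand known from joint formation, is a gene of chromosome 2 (51102757 to 51128346 in Sscrofa11.1). Its level was an FPKM of 42.1, 37.2 and 23.1 at 24 h and 31.3, 31.2 and 34.4 at 36 h. The 36 h values lay inside the range of the 24 h values, and the change was -0.04 (standard error 0.21, limma adjusted p = 0.899). Without 24 h replicate 6, the library with the lowest value, the change was -0.29 with a limma adjusted p of 0.0243, and with median-ratio scaling it was 0.14 (limma adjusted p = 0.643), so its sign depended on the setting. WNT5B, a ligand of the non-canonical branches, had 2.43, 3.30 and 3.16 at 24 h and 5.62, 3.95 and 3.12 at 36 h, from 68 fragments at 24 h and 120 at 36 h. Replicate 6 of the 36 h group lay inside the 24 h range, and the change of 0.38 (standard error 0.19) did not pass, with a limma adjusted p of 0.134. Without 36 h replicate 4, the highest library, the change was 0.20 (limma adjusted p = 0.347), and it passed only with quantile normalization, at 0.56 and a limma adjusted p of 0.0434. The spans of WNT5B and FBXL14 share 3149 bases.

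Of the summed FPKM of the 6 ligands in the list that were found, WNT9A took 90.2% ± 3.58 (SD, n = 3) at 24 h and 87.6% ± 3.53 at 36 h, and WNT5B took 8.43% ± 3.22 and 11.5% ± 3.41. WNT4 and WNT5A, which had no matching symbol, are missing from this sum, so the shares do not cover all Wnt ligands. Also outside it are 8 other Wnt ligands found in a wider list given below, which summed to between 2.22 and 3.49 per library. WNT2B, at 0.518, 0.477 and 0.427 at 24 h and 0.255, 0.278 and 0.225 at 36 h, lay under the mean FPKM of 1 and was not tested. Its groups did not overlap, on 151 and 99 fragments, and it was called lower in the fit without a filter (-0.23, limma adjusted p = 0.0157), while its whole span of 17203 bases lies inside that of ST7L, and the sources used here do not say whether counting used the strand. WNT2, WNT10B and WNT11 lay between 0 and 0.0568, below the value of 3 fragments in 1 kb, and their level was not detectable at this depth.

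Ligand secretion was lower at 36 h in both of its genes. PORCN (ENSSSCG00000024793, chromosome X from 42653696 to 42669526) encodes the acyltransferase that attaches the lipid to Wnts. Its FPKM was 19.2, 25.9 and 68.6 at 24 h and 8.34, 9.59 and 10.2 at 36 h. Every 36 h library lay below every 24 h library, and 24 h replicate 6 was far above its group. The change was -1.70 (standard error 0.42, limma adjusted p = 0.0154), the largest fall of the list on this scale, and it was -1.17 without 24 h replicate 6 (limma adjusted p = 0.00141). Only without 36 h replicate 4 did the call end, at -1.63 and a limma adjusted p of 0.0523. WLS, the carrier that brings Wnts to the cell surface, had 30.9, 33.0 and 39.5 at 24 h and 28.3, 26.0 and 29.0 at 36 h. The groups did not overlap but lay close, and the change was -0.29 (standard error 0.10, limma adjusted p = 0.0467). That call held in 6 of 15 alternatives only, and it ended with median-ratio scaling (-0.12, limma adjusted p = 0.281), without 24 h replicate 5 (limma adjusted p = 0.0850), without 24 h replicate 6 (-0.20, limma adjusted p = 0.0582) and without each 36 h library (0.0733 to 0.149).

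**Figure D3:**
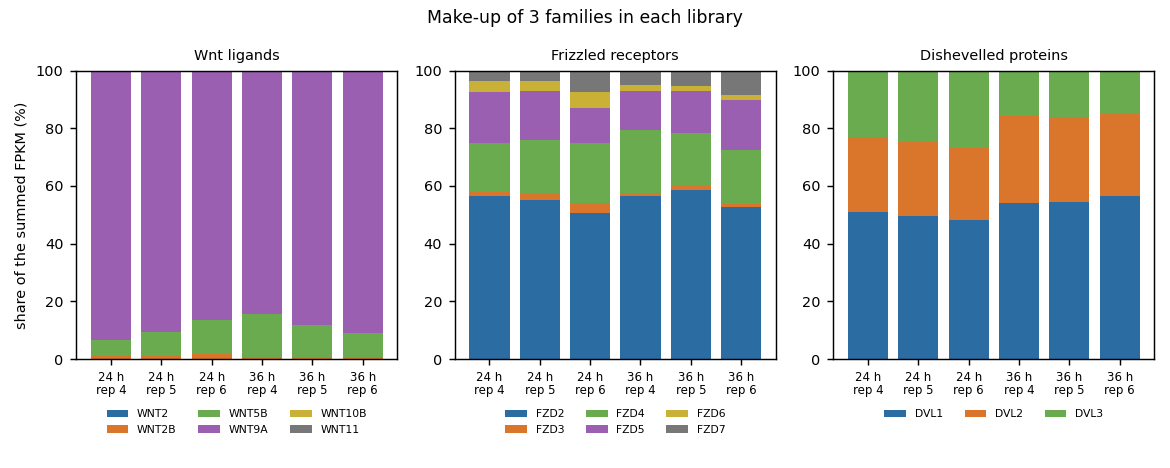
Share (%) of each gene in the summed FPKM of its family, one bar per library, for the 6 ligands, the 6 Frizzled receptors and the Dishevelled proteins. WNT9A fills 84.0% to 93.5% of every ligand bar, FZD6 is narrower at 36 h, and DVL3 takes 24.9% ± 1.71 of the Dishevelled sum at 24 h and 15.7% ± 0.493 at 36 h.

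The Frizzled receptors moved in different directions. FZD2 was the most abundant by FPKM and held 54.1% ± 3.16 (SD, n = 3) of their summed FPKM at 24 h and 55.9% ± 3.03 at 36 h. FZD4 had more fragments, 3781 against 2360 at 24 h and 6468 against 3908 at 36 h. The gene length behind the FPKM was 4361 bases for FZD4 and 924 for FZD2. FZD2 had an FPKM of 62.9, 55.9 and 34.9 at 24 h and 66.8, 72.0 and 70.2 at 36 h. All 36 h values were above all 24 h values, but the change of 0.48 (standard error 0.20) had a limma adjusted p of 0.0891. It passed without 24 h replicate 6 (0.23, limma adjusted p = 0.0361) and without 24 h replicate 4 (0.64, limma adjusted p = 0.0329). FZD4 (ENSSSCG00000014920, chromosome 9 from 20714995 to 20721460), a receptor for Wnts and for norrin, had 19.0, 19.0 and 14.3 at 24 h and 25.9, 22.5 and 25.1 at 36 h. The groups did not overlap, and the change was 0.48 (standard error 0.12, limma adjusted p = 0.0170). The call ended without 36 h replicate 4 (limma adjusted p = 0.0585) or 6 (0.0517).

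FZD7, a receptor known in satellite cells for polarity signals, had 4.11, 3.54 and 5.18 at 24 h and 5.88, 6.43 and 11.2 at 36 h. Its 36 h replicate 6 was far above the other libraries, and the change was 0.71 (standard error 0.23, limma adjusted p = 0.0411). It ended in the fit without a filter (limma adjusted p = 0.0687) and without 24 h replicate 4 (0.0832) or 5 (0.119) or 36 h replicate 5 (0.0646) or 6 (0.0611), and without that last library the change was 0.45. FZD6 (ENSSSCG00000006052, chromosome 4 from 33811159 to 33844556), a receptor of the non-canonical branches, went the other way. Its FPKM was 4.12, 3.70 and 3.75 at 24 h and 2.29, 2.20 and 2.57 at 36 h. Both groups were narrow and far apart, the change was -0.53 (standard error 0.10, limma adjusted p = 0.00483), and the call held in every alternative that gave a value. As a share of the Frizzled sum, FZD6 went from 4.26% ± 1.01 to 1.89% ± 0.0812. FZD3 and FZD5 were not called, with overlapping groups at 1.31 to 2.47 and 8.48 to 22.9. Without 24 h replicate 6 the change of FZD3 went from -0.16 to -0.02 and that of FZD5 from 0.37 to 0.03.

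Each of the co-receptors and alternative receptors had a negative change, and 3 were called. RYK (ENSSSCG00000011642, chromosome 13 from 75285482 to 75390314), a Wnt receptor of the receptor tyrosine kinase class that lacks kinase activity, was the most abundant of them. Its FPKM was 44.3, 45.1 and 57.2 at 24 h and 24.2, 26.5 and 27.1 at 36 h. The 36 h mean was 0.530 times the 24 h mean, and the groups did not overlap. The change was -0.88 (standard error 0.11, limma adjusted p = 0.00162) and it was called in all 15 alternatives, with limma adjusted p between 0.000658 and 0.0113. LRP6, a canonical co-receptor, had 16.4, 15.3 and 14.4 at 24 h and 12.7, 12.1 and 12.6 at 36 h. The groups were separate but close, at a change of -0.28 (standard error 0.07, limma adjusted p = 0.0174). With median-ratio scaling the change was -0.11 and the limma adjusted p 0.293, and with quantile normalization they were -0.13 and 0.227, so the call depended on scaling. It also ended without 24 h replicate 4 (limma adjusted p = 0.0509) or 5 (0.0551) and without 36 h replicate 5 (0.0728).

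ROR2, a receptor tyrosine kinase of the non-canonical branches, had 1.97, 2.12 and 3.45 at 24 h and 1.23, 1.24 and 1.72 at 36 h. Its groups did not overlap, and the change was -0.53 (standard error 0.19, limma adjusted p = 0.0484). That value lies at the threshold, and the call held in 6 of 14 alternatives. It ended with median-ratio scaling (-0.42, limma adjusted p = 0.0870), without 24 h replicate 5 (limma adjusted p = 0.0710), without 24 h replicate 6 (-0.35, limma adjusted p = 0.0655) and without each 36 h library in turn (0.0555 to 0.138). LRP5 and ROR1 were not called and overlapped between groups, at 5.07 to 9.25 and 0.920 to 1.24. LRP5 had its highest value in 24 h replicate 6, and its change was -0.11 with that library and 0.11 without it. The changes of LRP5 and ROR1 were also positive with median-ratio scaling, at 0.04 and 0.03.

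Among the secreted inhibitors, the dickkopf genes DKK1 and DKK3 moved in opposite directions. DKK1 (ENSSSCG00000010428, chromosome 14 from 97487854 to 97490118) encodes the inhibitor that binds LRP5 and LRP6. Its FPKM was 3.72, 3.20 and 3.19 at 24 h and 1.40, 1.73 and 1.88 at 36 h. The 36 h mean was 0.496 times that at 24 h, and the change was -0.71 (standard error 0.12, limma adjusted p = 0.00358). DKK3 (ENSSSCG00000013401, chromosome 2 from 47385244 to 47444664), a divergent relative whose action on Wnt signaling varies with the cell type, had 13.5, 14.3 and 17.0 at 24 h and 22.3, 23.6 and 22.1 at 36 h. Its change was 0.58 (standard error 0.09, limma adjusted p = 0.00337). Neither gene had overlapping groups, and both calls held in every alternative that gave a value.

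SFRP1, a secreted decoy with a Frizzled-like domain, had 1.04, 1.12 and 3.59 at 24 h and 0.338, 0.429 and 0.499 at 36 h. The fall of -0.93 (standard error 0.32, limma adjusted p = 0.0450) leaned on 24 h replicate 6, and it was -0.55 without that library (limma adjusted p = 0.0128). With a pseudocount of 0.01 it was -1.93, a larger fall than that of PORCN at -1.80. The call held in 7 of 14 alternatives and ended with median-ratio scaling (-0.84, limma adjusted p = 0.0543), without 24 h replicate 5 (0.0508) and without each 36 h library in turn (0.0888 to 0.114). SFRP2, its relative, was not called but had separate groups, 7.06 to 9.57 at 24 h and 4.44 to 6.88 at 36 h. Its change was -0.49 with a limma adjusted p of 0.0505, and it passed in 4 of 15 alternatives. These were the fits without 24 h replicate 6 (limma adjusted p = 0.0221) or 36 h replicate 6 (0.0472), with voom (0.0405) and with a mean FPKM minimum of 5 (0.0486). SERPINF1, a secreted serpin known as PEDF and reported to bind LRP6, was the most abundant of the group, at 55.6, 50.4 and 26.1 at 24 h and 78.3, 68.6 and 55.5 at 36 h. The lowest 36 h library lay just under the highest 24 h library, and the change of 0.66 (standard error 0.28) had a limma adjusted p of 0.0903. It was 0.86 without 24 h replicate 4 (limma adjusted p = 0.0468) and 0.33 without 24 h replicate 6 (limma adjusted p = 0.0932), the lowest library. Its span lies wholly within that of SMYD4. FRZB was low, at 0.106 to 0.244 on 7 to 13 fragments per library (30 at 24 h and 33 at 36 h), and was not tested.

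The R-spondin group held a ubiquitin ligase that was higher, ZNRF3, and a receptor that was not called, LGR4. The other genes of the group that were found, RNF43, RSPO3 and LGR5, were low or listed at 0. ZNRF3 (ENSSSCG00000009971) removes Frizzled receptors from the cell surface, is blocked by R-spondins with LGR receptors, and is itself a target of Wnt signaling. Its FPKM was 4.84, 4.30 and 3.27 at 24 h and 8.07, 7.75 and 6.90 at 36 h. All 36 h libraries were above all 24 h libraries, the change was 0.75 (standard error 0.13, limma adjusted p = 0.00459), and it was called in all 15 alternatives. RNF43, the other ligase of this pair, was at 0.133, 0.0859 and 0.120 at 24 h and 0.0677, 0.0514 and 0.0156 at 36 h, on 20 and 10 fragments. It was too low to be tested and was not called in the fit without a filter (limma adjusted p = 0.109). LGR4, a receptor for R-spondins, had 11.9, 12.1 and 8.39 at 24 h and 10.8, 10.3 and 11.6 at 36 h. Those groups overlapped, and the change was 0.04 (standard error 0.14, limma adjusted p = 0.847). RSPO3 was listed at 0 in all 6 libraries, and LGR5 was listed at 0 in all but 36 h replicate 5, at 0.0353.

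The Dishevelled genes, which relay the signal of all Wnt branches inside the cell, differed among themselves. DVL1 (ENSSSCG00000003342, chromosome 6 from 63617787 to 63628965) had 90.0, 91.3 and 82.1 at 24 h and 141.7, 155.1 and 183.4 at 36 h, a change of 0.85 (standard error 0.10, limma adjusted p = 0.00155). DVL2 (ENSSSCG00000025689, chromosome 12 from 52581687 to 52590266) had 45.1, 47.3 and 42.3 at 24 h and 79.0, 84.3 and 91.6 at 36 h. Its change of 0.90 (standard error 0.08, limma adjusted p = 0.000752) was the largest rise of the list on this scale, whereas AXIN2 rose more with a pseudocount of 0.01 (1.02 against 0.92), with voom and with quantile normalization. Both were called in all 15 alternatives, and with median-ratio scaling the changes were 1.03 and 1.08. DVL3 (ENSSSCG00000025374, chromosome 13 from 122075851 to 122092975), which is named here after its values were seen, had 41.1, 45.5 and 45.3 at 24 h and 41.4, 45.9 and 49.1 at 36 h. Its groups overlapped, and its change was 0.05 (standard error 0.08, limma adjusted p = 0.661). It was not called in any alternative, although the change was 0.22 with median-ratio scaling (limma adjusted p = 0.0703).

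The 3 planar polarity genes with a call were lower at 36 h. DAAM2 (ENSSSCG00000001595, chromosome 7 from 35127245 to 35285933) and DAAM1 encode formins that link Dishevelled to actin. For DAAM2 the FPKM was 18.4, 16.9 and 13.5 at 24 h and 6.89, 7.34 and 7.69 at 36 h, a change of -1.05 (standard error 0.12, limma adjusted p = 0.00127). DAAM1 had 8.86, 8.98 and 9.31 at 24 h and 5.54, 5.43 and 6.15 at 36 h, a change of -0.59 (standard error 0.08, limma adjusted p = 0.00189). Their groups were far apart, at 0.449 and 0.630 times the 24 h mean, and both calls held in all 15 alternatives. VANGL1, a membrane protein of the polarity core, had 9.31, 10.8 and 12.1 at 24 h and 7.70, 7.58 and 8.95 at 36 h. That separation was narrow, at -0.37 (standard error 0.11, limma adjusted p = 0.0325), and the call held in 8 of 15 alternatives. It ended with median-ratio scaling (-0.21, limma adjusted p = 0.139), without 24 h replicate 5 (0.0866) or 6 (0.0591) and without 36 h replicate 4 (0.0949) or 5 (0.110). VANGL2 was not called (-0.32, limma adjusted p = 0.0507), with separate groups at 4.77 to 6.01 and 3.64 to 4.55. It passed in 5 of 14 alternatives. These were the fit without 24 h replicate 4 (limma adjusted p = 0.0348), eBayes without its trend (0.0456), voom (0.0469) and pseudocounts of 0.01 (0.0490) and 0.1 (0.04996).

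In the destruction complex the scaffolds AXIN2 and APC were higher while most kinases showed no call. AXIN2 (ENSSSCG00000017265, chromosome 12 from 12311293 to 12343207), a feedback inhibitor whose gene is a widely used target of β-catenin, had 3.67, 2.52 and 2.51 at 24 h and 5.56, 6.17 and 5.67 at 36 h. The mean was 2.90 ± 0.664 (SD, n = 3) at 24 h and 5.80 ± 0.325 at 36 h, on 119 and 290 fragments. That rise was 0.81 (standard error 0.13) with a limma adjusted p of 0.00361. The spans of AXIN2 and CEP112 share 2925 bases. APC (ENSSSCG00000014207, chromosome 2 from 116913354 to 116985303) had 36.5, 34.4 and 38.1 at 24 h and 48.0, 48.8 and 46.5 at 36 h. The change was smaller but the groups were narrow, at 0.39 (standard error 0.06, limma adjusted p = 0.00328), and both scaffolds were called in every alternative that gave a value. AXIN1, the constitutive relative of AXIN2, was not called in any alternative, with overlapping groups at 14.4 to 18.7 and 16.6 to 20.0.

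Of the kinases of the complex, CSNK1E was the only member called on the deposited values. CSNK1E, a casein kinase that also acts on Dishevelled, had 80.6, 84.4 and 80.0 at 24 h and 65.5, 67.9 and 73.9 at 36 h. Its groups did not overlap, and the change was -0.24 (standard error 0.07, limma adjusted p = 0.0222). With median-ratio scaling it was -0.06 (limma adjusted p = 0.515), and the call also ended without 24 h replicate 5 (0.0845) and without 36 h replicate 4 (0.0675) or 5 (0.0835). CSNK1A1, the casein kinase that primes β-catenin for degradation, was at 151.5, 149.0 and 147.8 at 24 h and 161.0, 152.9 and 146.0 at 36 h. GSK3B, which then phosphorylates β-catenin, was at 81.2, 84.0 and 75.8 at 24 h and 78.1, 78.8 and 82.9 at 36 h. The groups of both overlapped, with changes of 0.04 and -0.01 (limma adjusted p = 0.639 and 0.940). With median-ratio scaling CSNK1A1 was called higher (0.21, limma adjusted p = 0.0363), as was GSK3A (0.22, limma adjusted p = 0.0285), a relative at 55.4 to 62.8 that was not called on the deposited values, while GSK3B was not called in any alternative. The 7 genes of the complex summed to 424 ± 2.40 at 24 h and 433 ± 4.66 at 36 h (mean FPKM ± SD, n = 3).

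Among the nuclear effectors the message of β-catenin itself was not called, and a pair of its partners moved in opposite directions. CTNNB1 (ENSSSCG00000011274, chromosome 13 from 25163550 to 25208314), which encodes β-catenin, had the highest FPKM of the list, 204.7, 206.4 and 244.5 at 24 h and 207.9, 207.8 and 212.5 at 36 h. The 36 h libraries lay inside the 24 h range, and the change was -0.06 (standard error 0.08, limma adjusted p = 0.591, and from 0.204 to 0.723 over the alternatives), or 0.12 with median-ratio scaling. β-catenin is regulated mainly as a protein, which was not measured here. The spans of CTNNB1 and LOC106505576, a gene listed as protein coding, share 5300 bases. TCF7L2 (ENSSSCG00000010638, chromosome 14 from 123343695 to 123547332), a factor through which β-catenin acts on DNA, had 16.8, 16.3 and 17.1 at 24 h and 10.8, 11.3 and 13.0 at 36 h. Its 36 h libraries were all lower, the change was -0.48 (standard error 0.08, limma adjusted p = 0.00423), and the call held in all 15 alternatives. BCL9L (ENSSSCG00000015099), a co-activator that binds β-catenin, had 18.2, 17.8 and 17.2 at 24 h and 26.0, 27.8 and 29.1 at 36 h. It was higher in every 36 h library, at 0.61 (standard error 0.07, limma adjusted p = 0.00120), and was called in all 15 alternatives. Neither TCF7, at 4.44 to 6.08, nor BCL9, the relative of BCL9L at 10.9 to 12.5, was called in any alternative.

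Ratios of genes within a library are not changed when a library is multiplied by a factor. The 8 ratios given here were chosen after the values were seen, so they are a description with no test (3 libraries against 3 allow no exact permutation p under 0.1). DVL1 to DVL3 was 2.19, 2.01 and 1.81 at 24 h and 3.42, 3.38 and 3.74 at 36 h. DVL2 to DVL3 went from 1.02 ± 0.0834 (SD, n = 3) to 1.87 ± 0.0352, so that DVL2 and DVL3, at near equal FPKM at 24 h, stood apart at 36 h. AXIN2 to AXIN1 went from 0.183 ± 0.0637 to 0.328 ± 0.0440, and BCL9L to BCL9 from 1.54 ± 0.147 to 2.31 ± 0.0795. Among receptors, FZD4 to FZD6 was 4.60, 5.14 and 3.81 at 24 h and 11.3, 10.2 and 9.76 at 36 h. DKK3 to DKK1 went from 4.48 ± 0.851 to 13.8 ± 2.12, the widest of these shifts. In the other direction, TCF7L2 to TCF7 went from 3.35 ± 0.494 to 2.18 ± 0.301, and TCF7L2 to CTNNB1 from 0.0769 ± 0.00629 to 0.0559 ± 0.00489. The groups of all 8 ratios were separate, including 24 h replicate 6. Because the pairs were chosen on these same values, that count says nothing further about the genes. Of all single genes tested, 63.6% had separate groups.

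**Figure D4:**
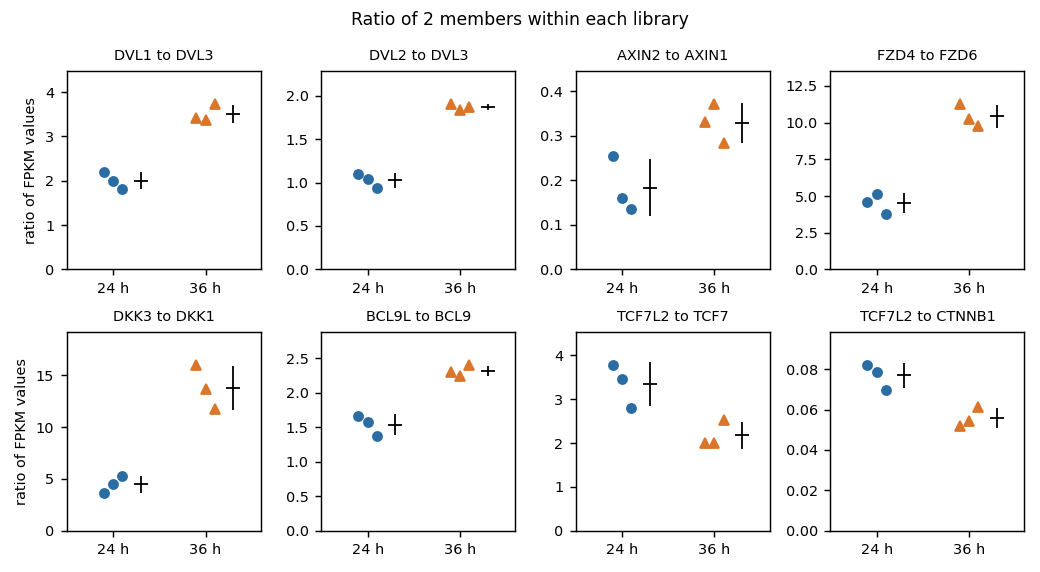
Ratio of the FPKM of a pair of genes within each library, in 8 panels with axes from 0, with 24 h libraries as circles, 36 h libraries as triangles and the mean ± SD (n = 3) beside each group. No panel shows overlap between the groups, and the pairs were chosen after the values were seen. DVL2 to DVL3 lies near 1.02 at 24 h and near 1.87 at 36 h.

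A wider list held 152 other genes of the pathway, of which 107 were found and 81 tested. It gave 13 genes higher and 31 lower, together 54.3% of those tested against 50.9% of all genes. Of all genes tested, 16.5% were higher and 34.4% lower, so falls were also the more frequent calls there. The median change of the wider list was -0.14, beside -0.16 for all genes. With median-ratio scaling these medians were 0.01 and -0.0033. The other receptors and extracellular regulators were split, with 3 of 12 higher and 3 lower. Those of planar polarity and calcium had 2 of 18 higher and 9 lower, those of the cytoplasmic relay 4 of 19 higher and 8 lower, the nuclear effectors 1 of 14 higher and 6 lower, and the target genes 3 of 18 higher and 5 lower, with TNFRSF19, which was higher, counted both as a receptor and as a target. The only other ligand tested, WNT16, was higher, at 1.47, 1.57 and 1.56 at 24 h and 2.78, 2.94 and 3.31 at 36 h (change 0.66, standard error 0.10, limma adjusted p = 0.00298). At a lower level, WNT7B, which was not tested and is named here after its values were seen, was at 0.597, 1.03 and 1.32 at 24 h and 0.0588, 0.0698 and 0.0849 at 36 h.

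The largest rises of the wider list with separate groups were GPC3, CAMK2A and DACT3. GPC3, a membrane glypican that binds Wnts, had 27.2, 27.3 and 22.7 at 24 h and 77.6, 66.5 and 56.9 at 36 h (change 1.34, limma adjusted p = 0.000928). CAMK2A, a kinase of the calcium branch, rose by 1.13 (limma adjusted p = 0.00492), and DACT3, which binds Dishevelled, by 1.11 (limma adjusted p = 0.000832). Among the falls were FN1, PLCB1 and FOSL1. FN1, a matrix gene of fibroblasts that is also listed as a Wnt target, had 286.1, 392.2 and 829.5 at 24 h and 63.8, 69.9 and 75.8 at 36 h (change -2.68, limma adjusted p = 0.00192, or -2.25 without 24 h replicate 6). PLCB1, a phospholipase of the calcium branch, fell by 1.43 (limma adjusted p = 0.000801), and FOSL1, an AP-1 factor, fell by 1.17 (limma adjusted p = 0.00674).

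LEF1, MYC and SDC1 are given for their known ties to the pathway. LEF1, both a nuclear partner of β-catenin and a target, was under the level for testing, at 0.125, 0.155 and 0.0773 at 24 h and 0.306, 0.445 and 0.235 at 36 h. All of its 36 h values were above its 24 h values, close to the value of 3 fragments in 1 kb. MYC, a growth regulator, had 24.7, 28.3 and 29.9 at 24 h and 9.62, 11.0 and 44.4 at 36 h. It was not called (change -0.67, limma adjusted p = 0.316), with 36 h replicate 6 above and the other 36 h libraries below every 24 h library, and that library was also the highest in FZD7. Without it MYC was called lower (limma adjusted p = 0.00285). SDC1, a membrane proteoglycan that the study names, had 13.7, 15.4 and 23.3 at 24 h and 21.4, 21.9 and 21.0 at 36 h. Its 24 h replicate 6 lay above all 36 h libraries, and the change of 0.31 (limma adjusted p = 0.179) was 0.53 without that library (limma adjusted p = 0.00192) and 0.48 with median-ratio scaling, where it was called too. CCND1 had no matching symbol and was not analysed here.

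**Figure D5:**
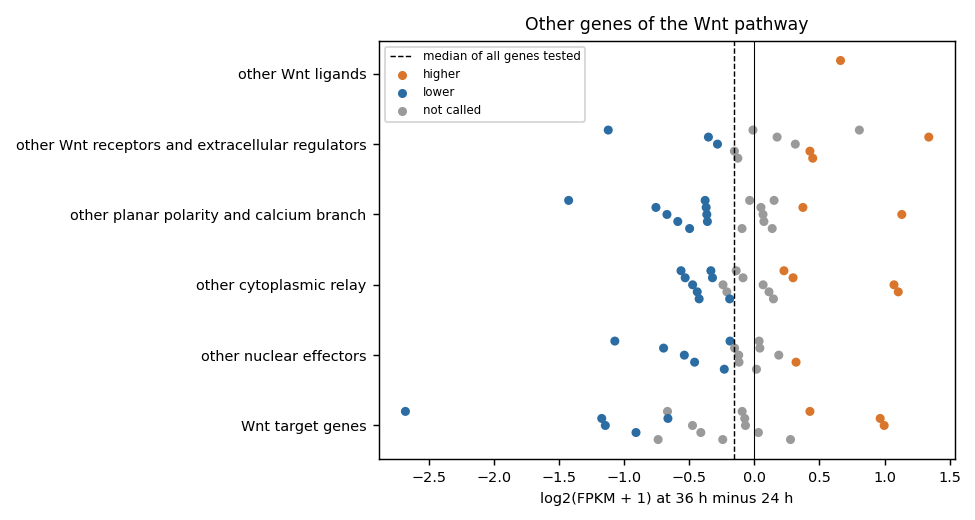
Change in log2(FPKM + 1), 36 h minus 24 h, of the tested genes of the wider list, a point per gene and a row per group, colored by call, with the median of all genes tested as a dashed line at -0.16. The lowest point is FN1 at -2.68 and the highest is GPC3 at 1.34, and every group but the single ligand holds points on both sides of 0.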

How the data were processed

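Paired-end RNA-seq of 6 libraries, 3 per group, was analysed. Per the study's methods, the authors mapped reads with HISAT2 to Sscrofa11.1, assembled them with StringTie, counted genes with HTSeq and deposited FPKM values, a column per library and none pooled. The submitters' processing notes name TopHat2, Cufflinks and HTSeq instead. Strand use and the handling of reads shared between genes are not given in the sources used here. Libraries with H19 siRNA were not analysed here, and every column was used.

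The members and lists were chosen with earlier results of these data known. Symbols were paired with 11804 of 25322 Ensembl identifiers, and positions were taken from RefSeq on Sscrofa11.1. The model was limma's (version 3.58.1, R 4.3.3), two-sided, with eBayes and its mean trend. It was fitted to log2(FPKM + 1) of the 14060 genes whose mean FPKM reached 1, with Benjamini-Hochberg adjustment over all of them and a threshold of 0.05. The fit was tested on simulated data. Whole fragments were recovered from the deposited FPKM steps for all 19543 genes above 0 in at least 3 libraries, with each value within 0.05 of a whole number, and limma voom on these reads called 7245 genes. The limit of 3 fragments covers counting error only.

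Values in every library are given for members that were called, were among the 2 highest of their role or are named by the study. In the wider list they are given for LEF1, MYC and SDC1. Of the 3 largest rises and falls with separate groups there, GPC3 and FN1 are given in every library. For CAMK2A, DACT3, PLCB1 and FOSL1 only the change is given. WNT2B, RNF43, SFRP2, VANGL2, DVL3, GSK3A, LRP5, WNT16 and WNT7B were added after their values were seen. Of the other marker lists, adipocyte genes summed to 3.17 to 4.73 FPKM and Schwann cell genes to 0 to 0.203. Among 10 common reference genes, 5 were called lower at 36 h and 0 higher, beside 34.4% and 16.5% of all genes tested. Their median change was -0.41, or -0.23 with median-ratio scaling. The fit was repeated with quantile normalization or median-ratio scaling, with voom, with a replicate block, with eBayes lacking the trend, with pseudocounts of 0.1 or 0.01, with the mean FPKM minimum raised to 5 or dropped, without each library in turn, and with a minimum absolute log2 change of 1.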

Additional observations from a re-analysis of the deposited data

How the results depend on the processing

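Of the 22 called genes of the list, 13 kept their call under every alternative that gave a value, and 11 of the 41 tested genes were not called in any fit. The number of genes called lower, 13 on the deposited values, fell to 7 with median-ratio scaling and to 8 with quantile normalization, and was 7 to 13 when each library was left out in turn, with 7 without 24 h replicate 5, 36 h replicate 4 or 36 h replicate 5. The number called higher, 9, was 11 and 10 under these scalings and ranged from 7 to 10 with a library left out. A minimum absolute log2 change of 1 can only lower the counts. On log2(FPKM + 1) it left 2 genes lower (PORCN and DAAM2) and 0 higher. With a pseudocount of 0.01, AXIN2 also exceeded 1 (1.02), and DKK1 and SFRP1 fell below -1 (-1.02 and -1.93). With median-ratio scaling DVL1 and DVL2 exceeded 1 (1.03 and 1.08). Over the whole table the minimum left 1176 of the 7156 genes called. Without it, the genes called over the whole table ranged from 4889 to 7336 with a library left out. Of the wider list 44 genes were called, and 30 to 42 with a library left out. Of all calls 32.4% were higher at 36 h, a share of 51.9% under median-ratio scaling and 46.2% under quantile normalization. For the calls within the list these shares were 40.9%, 61.1% and 55.6%.

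Changes that took the opposite sign were all of genes that were not called. With median-ratio scaling they were WNT9A (0.14), LRP5 (0.042), ROR1 (0.026), GSK3B (0.17) and CTNNB1 (0.12), and in the quantile fit WNT9A (0.030), LRP5 (0.065) and ROR1 (0.063). With a library left out in turn, the change ranged from -0.29 to 0.13 for WNT9A, from -0.27 to 0.11 for LRP5, from -0.12 to 0.12 for LGR4, from -0.0091 to 0.11 for DVL3, from -0.047 to 0.026 for GSK3B and from -0.10 to 0.026 for CTNNB1. Why these signs and calls moved was not tested.

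The replicate numbers were not taken to pair the libraries in the main fit. Deviations of same-numbered libraries from their group means correlated across genes at 0.146, -0.0165 and 0.178 for numbers 4, 5 and 6. Libraries with different numbers gave -0.197 to 0.105, so numbers 4 and 6 lay above that range and number 5 inside it. Whether the numbers pair the libraries was not tested further. With the replicate block 10 genes of the list were higher and 13 lower, SERPINF1 being added (0.66, limma adjusted p = 0.0152), 40 of the wider list and 7034 of all genes were called. Genes under an FPKM of about 0.183 rest on 3 fragments or fewer per kilobase, which limits what can be said of WNT2, WNT10B, WNT11, LGR5, RSPO3 and RNF43.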
